A study of Mus musculus with 4 samples.

Results

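The 10 genes described here encode actin and proteins that build, cut, branch or pull actin filaments: *Actb*, *Actg1*, *Tmsb4x*, *Tmsb10*, *Pfn1*, *Cfl1*, *Coro1a*, *Arpc1b*, *Was* and *Myh9*. They were chosen by name for their role in the actin cytoskeleton, and all 10 were found among the 25239 genes of the deposited count table. Bulk RNA sequencing measured them in NKT cells of the small intestinal lamina propria (SI-LP), sorted from wild-type mice with the genotype label C57BL/6Jax. The sort took live cells that bound the PBS57-loaded CD1d tetramer and carried TCR-β, without B220, CD11b, CD11c or CD8. A nanobody against ARTC2 had been injected into the mice, a treatment that all libraries share. The methods give an age range for the study's mice, but the labels give no age, sex or mouse of origin for a single library. The 4 libraries are 1 condition from 2 experiments, the first with replicates 3 and 4 and the second with replicates 1 and 2, so the only labelled comparison is between experiments, and it measures how far libraries of the same kind differ.

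Actin monomers join into filaments that push the membrane forward, hold the contact between a T cell and its target and give the cell its stiffness. Thymosin β4 and thymosin β10 hold monomers in reserve, profilin hands them to growing ends, and cofilin severs old filaments to free monomers again. The Arp2/3 complex, switched on by proteins of the WASP family, starts branches, coronins disassemble or protect them, and non-muscle myosin II pulls on filaments. In lymphocytes these genes are among the strongly transcribed ones, and loss of WASP, coronin 1A or ARPC1B is known to cause immune deficiency.

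The shallowest library held 3882803 counts and the deepest 8732858, so that 3 counts, taken as the smallest level a library can show, lay between 0.344 and 0.773 CPM, which scales the counts of each library to a common total. The share of the ribosomal RNA gene *Rn45s* was 11.4%, 7.36%, 28.1% and 21.6% from replicate 1 to replicate 4. All 9 genes of a T cell marker list, among them *Cd3e*, *Cd3d*, *Cd3g* and *Lck*, lay above 3 counts in all 4 libraries, so the defining markers of the labelled cell type were present. Together they made up 0.326%, 0.144%, 0.363% and 0.160% of counts in replicates 1 to 4. A list of 7 leukocyte genes, which includes *Coro1a*, took 0.589%, 0.235%, 0.587% and 0.287%. The 21 genes of an epithelial list took 0.0995%, 1.27%, 0.0169% and 2.95%, and 17 of them lay above 3 counts in every library. Of these genes *Lyz1*, named after its values were seen, had 2171, 3534, 47 and 84299 counts in replicates 1 to 4. It held most of the list's counts in replicate 4, and the higher share of replicate 4 than of replicate 2 rests on it. Plasma and B cell genes took 0.660%, 0.842%, 0.0114% and 0.0386%. Markers of myeloid cells stayed at or under 0.0184% of counts in every library, those of stroma, muscle and endothelium at or under 0.0238%, those of mast cells at or under 0.00752%, and those of red blood cells and platelets at or under 0.000901%. Replicates 2 and 4 thus had a lower share of T cell markers and a higher share of epithelial markers than the other library of their experiment. In bulk RNA, fewer cells of a type and less RNA per cell cannot be told apart.

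The 10 actin genes took 0.922%, 0.681%, 1.27% and 0.969% of all counts in replicates 1 to 4 (0.960% ± 0.242, SD, n = 4). Of the counts without *Rn45s* they took 1.04%, 0.735%, 1.77% and 1.24% (1.19% ± 0.434). The range between libraries was 1.87-fold with *Rn45s* and 2.40-fold without it. *Actb* alone held between 44.2% and 52.3% of these counts in every library. Per length, in TPM, which divides counts by gene length and scales them to a common total, *Actb*, *Tmsb4x*, *Pfn1*, *Cfl1* and *Tmsb10* were 5 of the 117 genes that form the top 1% of the 11689 tested genes. Without replicate 3 this count was 3, and without the other replicates it stayed at 5. *Was*, at the 80.6th percentile, was the lowest.

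By mean TPM the order was *Actb* (6619 ± 1664, SD, n = 4), *Tmsb4x* (5905 ± 2798), *Pfn1* (2921 ± 875), *Cfl1* (1150.2 ± 605), *Tmsb10* (1082 ± 593), *Coro1a* (708 ± 385), *Actg1* (699 ± 177), *Arpc1b* (401 ± 254), *Myh9* (221 ± 91.4) and *Was* (72.2 ± 59.5). Some steps in this order held in every library: *Tmsb4x* over *Pfn1* by 0.96 ± 0.30 on the log2 TPM scale (SD, n = 4), *Pfn1* over *Cfl1* by 1.44 ± 0.32, and *Myh9* over *Was* by 1.96 ± 0.77. The other neighbours changed places in at least 1 library. *Actb* lay over *Tmsb4x* in 3 of 4 libraries, with a log2 TPM ratio of 0.24 ± 0.28, and *Coro1a* over *Actg1* in 2 of 4, with -0.13 ± 0.78. *Myh9* ranked 622nd of the tested genes by TPM and 132nd by CPM, since its transcript of 7435 bases is the longest of the 10.

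**Figure D1:**
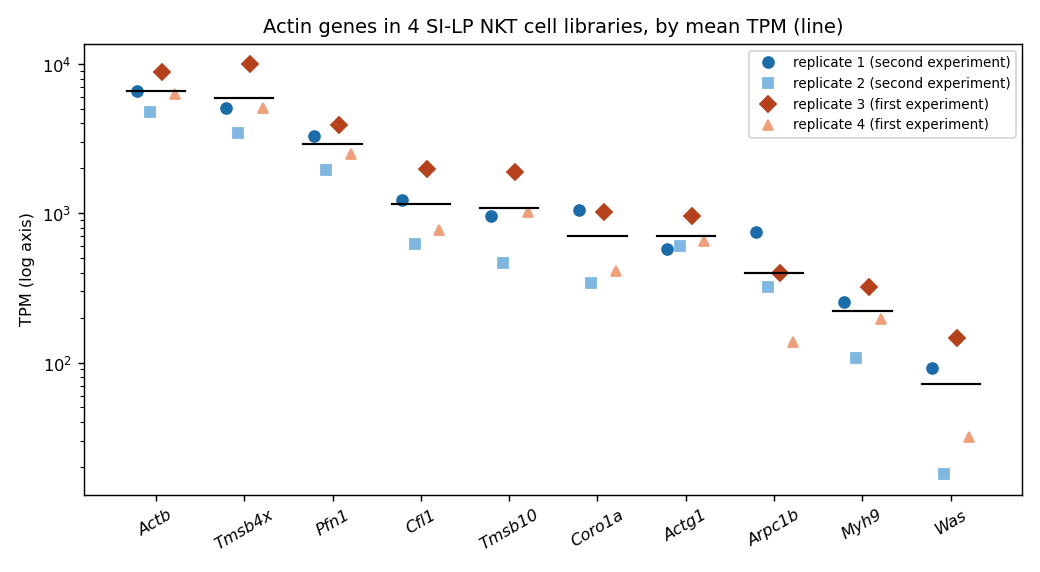
TPM of the 10 actin genes (log axis) in each of the 4 SI-LP NKT cell libraries, ordered by mean TPM, which the black lines mark. Replicate 3 is the highest library for 8 of the 10 genes, and *Was* spans a wider range than any other gene.

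The cytoplasmic actins supply the monomer itself. *Actb* encodes β-actin (chr5:142903115-142906754, minus strand, GRCm38), and its CPM was 4227, 2975, 6872 and 4879 in replicates 1 to 4. Replicate 3 was the highest and replicate 2 the lowest, at a 2.31-fold range. *Actg1* encodes γ-actin (chr11:120345687-120348495, minus strand), and its CPM was 375, 386, 763 and 514. Its range of 2.03-fold was the narrowest of the 10 genes, with both libraries of the second experiment below both of the first. Per 1000 *Actb* counts there were 88.8, 129.6, 111 and 105 *Actg1* counts. Per base of gene length, *Actb* was 11.5, 7.85, 9.16 and 9.65-fold higher than *Actg1*. The 4 other actin isoforms, which form the filaments of muscle, had few or no counts in replicates 1, 3 and 4: *Actc1* had 0 counts in all 4 libraries, *Acta1* had 0, 80, 0 and 5, *Acta2* had 1, 164, 0 and 6, and *Actg2* had 16, 0, 0 and 0. Replicate 2 thus held most counts of *Acta1* and *Acta2*, at 15.0 and 18.8 TPM, beside 17.9 TPM of *Was* in that library.

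*Actg1* is the member that shares most sequence with other loci. Of the 2101 windows of 101 bases (the read length in the labels) along its transcript, 77.1% occurred unchanged in transcripts of 8 other loci in GENCODE vM39 on GRCm39, and 1496 of these 1619 windows were shared with a single noncoding RNA gene, *Gm70496*. The share was 6.87% for *Arpc1b*, 4.44% for *Cfl1* and at most 1.04% for the other 7 genes. No such window was common to *Actb* and *Actg1*, or to *Tmsb4x* and *Tmsb10*, so that these pairs could be told apart by reads. How reads from the shared stretches were assigned on GRCm38 was not tested.

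Actin genes are known targets of the serum response factor, which reads the pool of free actin monomers through its MRTF partners and binds a motif called the CArG box. In RefSeq windows on GRCm38.p6, from 250 bases before to 50 bases after the start site, an exact CArG box (10 bases, the same on both strands) was found in 1 of the 9 members that have a window, *Actg1*; *Actb* has no window and was not searched. The box occurred in 1.63% of 32851 windows, in 1.81% of the 27025 genes with a window, and in 8 of the 99 genes of the actin lists that have a window, namely *Actg1*, *Acta1*, *Actc1*, *Arpc4*, *Myl6*, *Myl9*, *Vil1* and *Cnn2*. The stretch of the *Actg1* promoter at chr11:120348551-120348610 (minus strand) is shown because it holds the only box among the 9 members searched. The box, in capitals, begins 90 bases before the start site:
Actg1: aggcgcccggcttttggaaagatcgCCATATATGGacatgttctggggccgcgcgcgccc
A match is a description of the sequence, and binding was not measured.

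Among the proteins that bind monomers, *Tmsb4x* encodes thymosin β4, the main monomer reserve of leukocytes (chrX:167207094-167209218, minus strand). Its CPM was 1139, 755, 2707 and 1382. *Tmsb10*, which encodes the related thymosin β10 (chr6:72957347-72958748, minus strand), had 300.1, 142, 725 and 387 CPM. In both, replicate 3 stood highest and replicate 2 lowest, and both libraries of the second experiment lay under both of the first. The range was wider for *Tmsb10* (5.10-fold) than for *Tmsb4x* (3.59-fold). Per base, *Tmsb4x* lay 5.34, 7.48, 5.26 and 5.03-fold over *Tmsb10*, with replicate 2 apart from the other 3 libraries. *Pfn1* encodes profilin 1, which delivers monomers to growing ends (chr11:70651847-70654650, minus strand), and its CPM was 957, 548, 1389.8 and 882. It followed *Actb* more closely than any other pair of the 10 genes followed each other, with 226, 184, 202 and 181 *Pfn1* counts per 1000 *Actb* counts, a 1.25-fold range. The other profilins were at or near 0, since *Pfn2* had 2, 0, 0 and 0 counts, and *Pfn3* and *Pfn4* had 0 in all libraries.

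Filament turnover was represented by *Cfl1* and *Coro1a*. *Cfl1* encodes cofilin 1, which severs filaments (chr19:5490455-5494031, plus strand), and had 483, 239.7, 949.6 and 372 CPM. Its muscle form *Cfl2* lay 152, 10.5, 176 and 99.3-fold under it per base. *Dstn*, which encodes destrin, a relative of cofilin known from epithelia, had 41.3, 407, 16.3 and 279 CPM. Replicates 2 and 4 were high for *Dstn* and low for *Cfl1*, so that the *Cfl1* to *Dstn* ratio per base was 18.8, 0.945, 93.5 and 2.14. *Coro1a* encodes coronin 1A, the coronin of leukocytes (chr7:126699774-126704816, minus strand), and had 673, 211, 794 and 318 CPM. Replicates 1 and 3 formed a high pair and replicates 2 and 4 a low pair, each with 1 library of each experiment. Its counts per 1000 *Actb* counts were 159, 71.1, 116 and 65.2.

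Of the branching genes, *Arpc1b* encodes a subunit of the Arp2/3 complex (chr5:145114256-145128186, plus strand) and had 384, 162, 252 and 86.1 CPM. Against *Actb* it ranged over 5.16-fold, the widest of the 9 other genes, with 91.0, 54.3, 36.7 and 17.6 counts per 1000 *Actb* counts. *Was* encodes WASP, the blood cell activator of the Arp2/3 complex (chrX:8081466-8090491, minus strand), and had 64.3, 12.2, 125 and 26.6 CPM. This 10.3-fold range was the widest of the 10 genes, with replicates 2 and 4 under replicates 1 and 3. *Myh9* encodes the heavy chain of non-muscle myosin IIA, which contracts filaments (chr15:77760585-77842175, minus strand), and had 634, 260.4, 977 and 591 CPM. None of the 10 genes shares exon bases with another gene of the table.

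Against the other genes of the table the 10 were neither the steadiest nor the most variable. Their SD over the 4 libraries on the log2 CPM scale had a median of 0.81 and ran from 0.48 to 1.46. The median was 1.02 over all tested genes and 0.60 over the 3711 genes at least as abundant as the lowest member.

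Between the experiments, 0 of the 10 actin genes passed the quasi-likelihood test of edgeR (adjusted p under 0.05), against a background of 0 of 11689 genes (0% called). At an unadjusted p under 0.05 there were again 0 members, beside 248 of all tested genes (2.12%), and with DESeq2 there were 0 members among 41 called genes (0.351%). The estimates were lower in the second experiment for 9 of 10 genes, where 48.6% of all tested genes had a difference below 0. The median difference was -0.78 on the log2 scale for the members and 0.03 for all tested genes. With 1 library left out, the members' median was -1.38 without replicate 1, -0.35 without replicate 2, -0.32 without replicate 3 and -1.07 without replicate 4. Other values split by experiment as well. The 7 plasma and B cell genes that passed the filter had a median difference of 5.98, with 6 of them at an unadjusted p under 0.05 and 0 called by edgeR, and *Rn45s* was lower in both libraries of the second experiment. With *Rn45s* left out of the counts, the members' median difference was -0.75. Beyond this, the part of these values in the actin gene estimates was not tested. *Tmsb10* was at -1.33 (SE 0.68, unadjusted p = 0.094, adjusted p = 0.9997 with edgeR). With 1 library left out it ran from -1.93 to -0.81. *Tmsb4x* was at -1.11 (SE 0.73) and *Was* at -0.99 (SE 1.10). *Arpc1b* was the gene with a higher estimate in the second experiment, at 0.69 (SE 0.75). The adjusted p was 0.9997 for each of the 10. *Coro1a*, at -0.33 (SE 0.80), turned to 0.30 without replicate 2 and 0.48 without replicate 3. Without replicate 3 *Was* turned to 0.52, and without replicate 1 *Arpc1b* turned to -0.029. With 2 libraries in each experiment and these errors, differences of the sizes seen could not be told from the spread between replicates, and the labels do not say whether libraries come from separate mice.

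**Figure D2:**
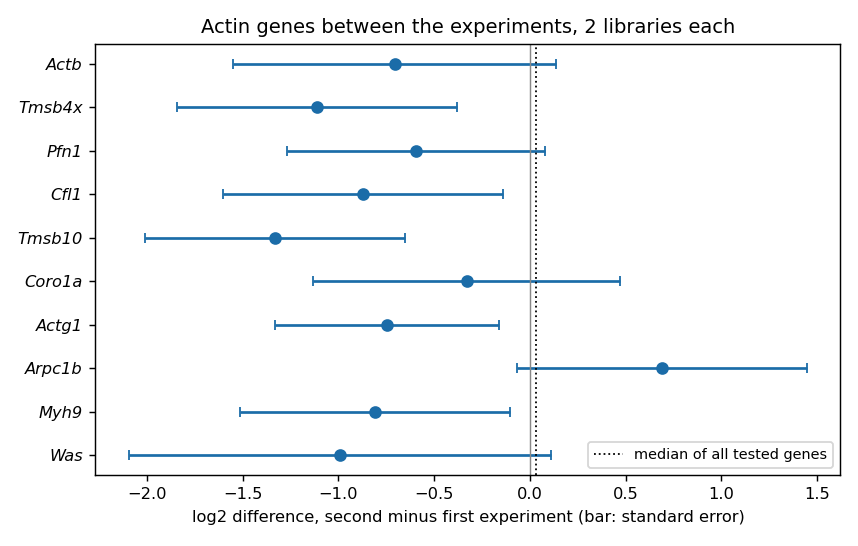
Log2 difference of the 10 actin genes between the second and the first experiment, with the edgeR estimate as a point. The bar is a standard error derived from the test statistic, and the dotted line is the median of all 11689 tested genes at 0.03. *Arpc1b* lies to the right of 0 and the other 9 genes to the left, and the adjusted p of each is 0.9997.

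Within the experiments, most of the 10 actin genes and some marker lists differed in the same direction in both. With 1 library on each side this can be described and not tested. From replicate 1 to replicate 2, and from replicate 3 to replicate 4, 9 of the 10 actin genes were lower in both differences, where 29.9% of all tested genes were. The exception was *Actg1*, at 0.04 and -0.57 on the log2 CPM scale. *Cfl1* (-1.01 and -1.35), *Coro1a* (-1.67 and -1.32), *Arpc1b* (-1.25 and -1.55) and *Was* (-2.37 and -2.22) were lower by more than 1 log2 unit in both, which is 4 of 10 genes against 8.08% of all tested genes. Scaled by library size alone, only *Was* of the 4 passed that limit in both. None of the 10 was higher by more than 1 log2 unit in both, where 19.0% of all tested genes were. *Actb* was among the members with the smallest differences, at -0.51 and -0.49. *Pfn1* was at -0.80 and -0.66, *Tmsb4x* at -0.59 and -0.97, *Tmsb10* at -1.08 and -0.90, and *Myh9* at -1.28 and -0.73. The median was -1.04 and -0.94 for the 10 genes and 0.13 and 0.08 for all tested genes. Some marker lists differed between the same libraries. All 9 T cell markers were lower in both differences, with medians of -1.03 and -1.47. So were all 7 leukocyte genes, with -1.84 and -1.32. The leukocyte list includes the member *Coro1a*, so it is not separate from the 10 genes. Of the 21 epithelial genes, 20 were higher in both, with medians of 3.43 and 5.62. Medians of opposite sign were seen for plasma and B cell genes (-0.12 and 0.77) and for stromal, muscle and endothelial genes (-1.46 and 4.09). For myeloid genes the medians were 0.02 and 2.55, with 4 of 7 genes higher in both and 0 lower in both. The 1 mast cell gene that passed the filter was also higher in both, at 5.80 and 3.58. The 1 red blood cell and platelet gene that passed was at -4.74 and 2.46. The part of these other cells in the actin gene differences was not tested.

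**Figure D3:**
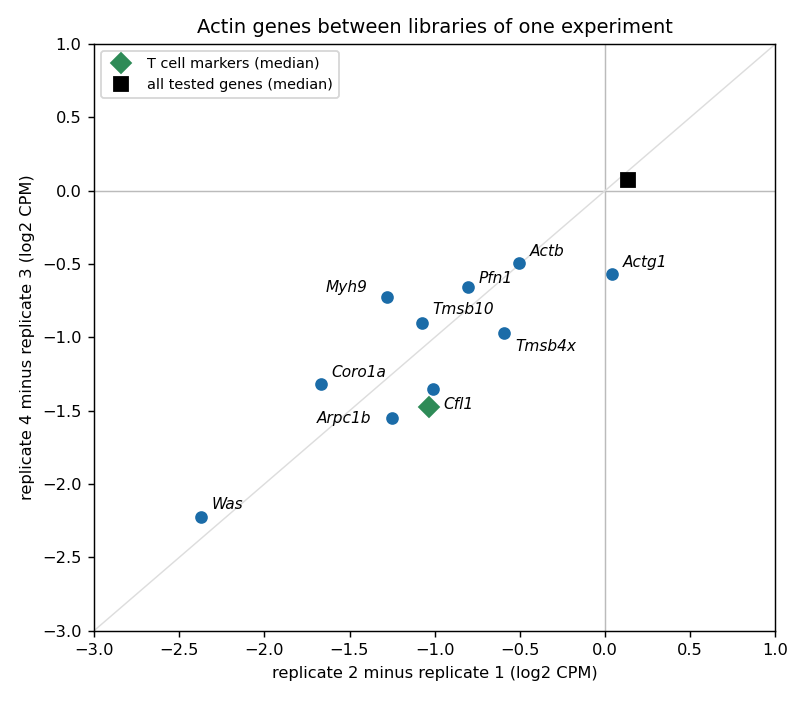
Log2 CPM of replicate 2 minus replicate 1 (horizontal) and of replicate 4 minus replicate 3 (vertical) for each of the 10 actin genes, with the medians of the 9 T cell markers and of all tested genes. *Was* lies farthest from 0 at -2.37 and -2.22, *Actb* and *Actg1* lie closest, and the T cell median of -1.03 and -1.47 falls among the members.

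Related genes were compared within each library as a ratio of counts per base, which does not depend on scaling between libraries. In 17 pairs, the first gene was the higher one in all 4 libraries for 13. Of the 8 pairs listed as a leukocyte form over another form, 7 had a lower ratio in replicate 2 than 1 and in replicate 4 than 3. So did 5 of the 9 other pairs, *Arpc1b* over *Arpc1a* among them. The pairs were listed with earlier results of these data known, and a share over gene pairs in general was not computed. Some pairs also share a gene, such as *Coro1a* or *Lcp1*, so the pairs are not independent. *Coro1a* lay over *Coro1b*, a coronin of many tissues, by 6.50, 1.07, 6.27 and 2.48-fold. *Arpc1b* lay over *Arpc1a*, which encodes the alternative form of the same Arp2/3 subunit, by 14.8, 1.81, 7.93 and 2.30-fold. *Was* relative to *Wasl*, which encodes the widely expressed N-WASP, was at 2.18, 0.380, 9.64 and 0.828, so the leukocyte gene was the lower one in replicates 2 and 4. Beyond the members, *Nckap1l* relative to *Nckap1*, the blood cell and general forms of a WAVE complex subunit, was at 15.1, 0.493, 45.5 and 2.56. *Lcp1* relative to *Pls1*, which encode the leukocyte and intestinal bundling proteins L-plastin and plastin 1, was at 74.9, 3.49, 356 and 9.03, and *Pls3*, the plastin of solid tissues, had 0, 31, 0 and 27 counts. *Hcls1* relative to *Cttn*, the blood cell and general forms of cortactin, was at least 418 in replicate 1, where *Cttn* had 0 counts and 3 were used in their place, and 2.70, 131 and 4.10 in the others. *Msn* relative to *Ezr*, membrane linkers, was at 4.14, 2.27, 5.43 and 2.03. *Myh9* lay over *Myh14*, the heavy chain of myosin IIC, by 19.95, 3.99, 430.4 and 3.04-fold, the third of these resting on 9 *Myh14* counts. In these pairs both replicates 2 and 4 stood lower than replicates 1 and 3.

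Other pairs differed less between these libraries, or in another way. *Rac2* relative to *Rac1*, the blood cell and general Rac GTPases, was at 0.800, 0.872, 1.55 and 0.824, so that replicate 3 alone had more *Rac2* per base. *Coro1a* lay over *Coro1c* by 12.7, 8.86, 8.77 and 7.06-fold, a narrower range than over *Coro1b*. *Myh9* lay over *Myh10*, the heavy chain of myosin IIB, by 34.4, 285, 269 and 28.3-fold, so that replicate 2 stood with replicate 3. *Myh9* was thus the most abundant of the 3 heavy chain genes in all 4 libraries.

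**Figure D4:**
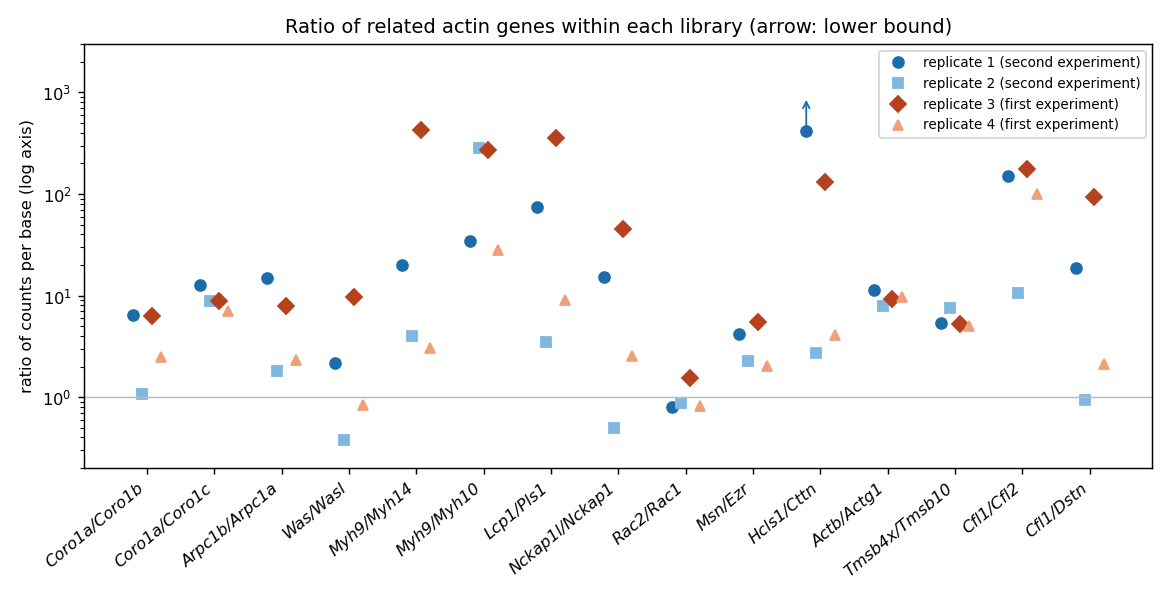
Ratio of counts per base of 15 pairs of related actin genes in each library (log axis), with the arrow marking a lower bound where the second gene had 0 counts. For *Coro1a* over *Coro1b*, *Arpc1b* over *Arpc1a*, *Was* over *Wasl* and *Nckap1l* over *Nckap1*, replicates 2 and 4 lie under replicates 1 and 3, while *Actb* over *Actg1* stays between 7.85 and 11.5.

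The wider pathway was read from 9 lists of 116 genes, the 10 members included, of which 100 passed the filter on low counts. Of the 90 other genes that passed, 0 were called between the experiments, 18 were lower by more than 1 log2 unit in both within-experiment differences, where 8.08% of all tested genes were, and 17 were higher, where 19.0% were. Their medians were -0.67 and -0.58. The shares of all tested genes are also the background of each list that follows. The counts of each list include its members, so *Cfl1*, *Coro1a*, *Arpc1b* and *Was* are counted again among the lower genes of their lists. Only the 2 cytoplasmic actins passed in the list of actin isoforms, and only the 3 members in that of thymosins and profilins. In the cofilin group, 4 of 13 were lower by more than 1 in both and 4 were higher. *Cap1*, which recycles monomers, was at -1.10 and -1.13, *Wdr1*, a cofilin partner, at -0.65 and -0.48, and *Dstn* at 3.29 and 4.07. Of 6 coronins 2 were lower and 0 higher, with *Coro1b* at 0.93 and 0.02 and *Coro2a* at -0.76 and -0.52.

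Of 9 Arp2/3 genes, 2 were lower by more than 1 in both and 0 higher. The subunit genes *Arpc2* (-1.21 and -0.70), *Actr3* (-0.82 and -0.67) and *Arpc5* (-0.70 and -0.56) were each lower in replicates 2 and 4, by less than *Arpc1b*. Their mean levels were 1150.2, 1038 and 661 TPM, above the 401 TPM of *Arpc1b*. In the WASP and WAVE group, 4 of 16 were lower and 2 higher. *Cyfip2*, a WAVE complex gene, was at -2.10 and -0.86, *Wipf1*, whose product stabilises WASP, at -1.53 and -0.93, and *Abi1* at -0.52 and -0.61. In the non-muscle myosin list, 3 of 13 were lower and 2 higher. The light chain genes *Myl6* (685 TPM), *Myl12b* (624 TPM) and *Myl12a* (233 TPM) had differences of 0.52 and -0.25, 0.02 and -0.88, and -0.66 and -0.36.

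Of 21 capping, bundling and linking genes, 4 were lower by more than 1 in both (8.08% of all tested genes) and 7 were higher (19.0%). *Lcp1* (-1.57 and -1.28) and *Msn* (-1.55 and -1.58) were lower, while *Tpm4*, a tropomyosin, was at -0.17 and -1.45. Among the 7 higher genes, *Vil1*, the villin of intestinal microvilli, was at 4.49 and 5.13 and *Pls1* at 2.83 and 3.94; these 2 were named after their values were seen. With the members, the 9 lists held 22 genes that were lower by more than 1 log2 unit in both and 17 that were higher.

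The genes with a pattern closest to that of *Actb* over the 4 libraries were *Vamp4*, *Exosc8*, *Tmem140*, *Irf1* and *Npc2*, with a root mean square difference of 0.04 to 0.06 between log2 CPM values centred on their means. The closest member was *Pfn1*, at 0.13. Those closest to *Coro1a* were *Lcp1* (0.05), the T cell receptor signalling chain gene *Cd3e* (0.06), *Slc26a10* (0.06), *Rbl2* (0.06) and *Abi3* (0.07). The member closest to *Coro1a* was *Cfl1*, at 0.30. Over 4 libraries such likeness is a description, since many of 11689 genes can lie this close to any pattern.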

How the data were processed

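Raw gene counts were deposited by the authors for SI-LP NKT cell libraries made with the Nugen Ovation ultralow kit from sorted cells. Per the paper and the file headers, paired reads were aligned with HISAT2 and primary alignments on RefSeq exons were counted with featureCounts 1.6.4 without a strand option, so a gene and its antisense partner cannot be told apart. The methods name GRCm39 and the submitters' processing notes GRCm38.p6; 99.6% of 25041 matched genes overlap their GRCm38 position, which is given here. The table holds 6 library columns, of which 2 match no sample label and were not used.

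Counts were scaled to CPM by TMM factors, log2 CPM with a prior count of 2, and TPM with the deposited gene lengths. A gene entered the test if 2 or more libraries held 10 or more of its counts (11689 genes), and the experiments were compared with edgeR 4.0.16 (glmQLFit and glmQLFTest, R 4.3.3, Benjamini-Hochberg over all genes), checked on simulated counts; all 10 actin genes passed the filter. Standard errors (SE) of the edgeR estimates were derived from the test, as the absolute log2 difference over the square root of the F statistic. DESeq2 1.42.0, other scalings, other filters, CPM in place of TPM and leaving out each library were the alternatives. Depth floors of 3 counts cover counting error only, since reads carry no molecular identifiers. P-values measure the spread between these samples, which may be technical. Promoter windows came from RefSeq and transcripts from GENCODE vM39, and windows were matched to genes by symbol.

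The members and all lists were chosen with earlier results of these data known. The named genes are the 10 members, the 3 other genes with the highest mean TPM of each actin list, the pairs of related genes, and the 5 genes closest in pattern to *Actb* and to *Coro1a*; a gene named by other means is said to be so or belongs to a count of a whole list. The separate result of 1 actin list is not reported here.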

Additional observations from a re-analysis of the deposited data

Results flagged for a closer look

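In 28 values examined (the level of each actin gene, its summed share and the ratios of related genes over the 4 libraries), the highest or lowest library stood apart from the others by Dixon's criterion in 2, where chance gives about 1.4. The log2 ratio of *Rac2* to *Rac1* per base was 0.63 in replicate 3, and the gap to the nearest of the other libraries was 0.870 of the whole range. The log2 ratio of *Tmsb4x* to *Tmsb10* was 2.90 in replicate 2, with a gap of 0.847 of the range.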

How the results depend on the processing

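The count of genes called between experiments, 0 with edgeR, was 60 without a filter on low counts, 41 with DESeq2 and 0 to 81 when 1 library was left out (10 without replicate 3 and 81 without replicate 4); the count of called actin genes stayed at 0 in each. The actin genes in the top 1%, 5 by TPM, were 3 by CPM, 3 among the 8089 genes that reached 10 counts in every library, and 3 to 5 with 1 library left out. Those lower by more than 1 log2 unit in both within-experiment differences, 4 as reported, were 1 with library size alone, which moved the median of all genes to 0.39 and 0.40. With 1 library left out, the difference between experiments ran from -1.36 to 0.48 for *Coro1a* (0.30 without replicate 2), from -0.029 to 1.67 for *Arpc1b* and from -2.60 to 0.52 for *Was*; the lone library of an experiment was then assumed to vary like the pair. The other 216 recomputed values counted as kept, which allows an unchanged or nearly unchanged count, a shift of up to 1 SD between replicates, or any shift of the same direction that leaves a gene uncalled. Such shifts were not small: with 1 library left out, the members' median difference between experiments ran from -1.38 to -0.32, *Tmsb4x* from -1.52 to -0.55 and *Tmsb10* from -1.93 to -0.81. With only replicates 1 and 3, a choice made after seeing the data, the summed share was 1.10% and the top 1% count 5. Leaving out a library was not run for within-experiment differences, which need all 4. No paired analysis was possible because the libraries are 1 condition and their numbers are not shared between experiments. Every actin gene lay above the 3-count floor in each library, and how many molecules the counts stand for is not known.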
